A study of Mus musculus with 12 samples.

Results

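Cluster 13, which the study annotated as the interneuron cluster Int 2, comprised 1304 of the 50550 nuclei in the 25 clusters. Its members were all nuclei placed in Cluster 13 by the deposited tables of 11 embryos, and their counts were summed per embryo. The study used single-nucleus RNA sequencing (snRNAseq, 10x 3′ chemistry version 3.1), which counts unique molecular identifiers (UMIs) per gene and nucleus, on cortices of C57BL/6J embryos at embryonic day 14. Dams received either saline or EtOH at 2.5 g/kg, given as a 25% v/v solution in saline by daily intraperitoneal injection on 6 days from embryonic day 8.5. The 5 saline embryos came from dams S1 (S1-1, S1-2) and S2 (S2-1, S2-2, S2-4), and the 6 EtOH embryos came from dams E1 (E1-1, E1-2) and E2 (E2-1 to E2-4). The labels place S1 and E1 in batch 1, and S2 and E2 in batch 2. All embryos thus shared the strain, the injection schedule and the saline vehicle, and each treatment was represented by 2 litters. The S2-3 embryo was not analysed here, and the labels do not give the sex of the embryos. Because embryos of a litter share a dam, the p-values below measure the spread between embryos, which is not the spread between litters.

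Inhibitory neurons of the embryonic forebrain arise in the ganglionic eminences of the ventral telencephalon. The medial and caudal eminences (MGE and CGE) send GABAergic interneurons tangentially into the cortex. The lateral eminence (LGE) produces mainly the projection neurons of the striatum, and its dorsal part also produces olfactory bulb interneurons and the intercalated neurons of the amygdala. Gad1 and Gad2 encode the enzymes that make GABA from glutamate, and Hs6st3 encodes a 6-O-sulfotransferase that edits the sulfation of heparan sulfate chains.

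Per embryo, Cluster 13 held 85 to 264 nuclei in the saline group and 45 to 143 in the EtOH group. The summed counts ranged from 208038 UMIs in E1-1 to 2529105 UMIs in S1-1, so that levels were least precise in E1-1. Single nuclei carried 1547 to 52464 UMIs and 972 to 7827 genes, and 14 nuclei exceeded 3 times the median of their embryo. No barcode of Cluster 13 occurred in more than 1 library (0 of 1304), while over all clusters 314 of 50226 barcodes did. Levels are given below as CPM, the UMIs of a gene per 1000000 summed UMIs, as mean ± SD over the 11 embryos unless stated, and a rank is the place of Cluster 13 among the 25 cluster means for the same gene. The clusters were built from these genes, so levels between clusters are descriptions with no test. Levels of different genes are not compared, because a 3′ UMI count depends on the transcript.

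Both markers given for Cluster 13 were detected in every embryo. Hs6st3 (ENSMUSG00000053465, chr14:119138341-119869815 on the plus strand of GRCm38) had its highest level of the 25 clusters in Cluster 13, at 2778 ± 526 CPM. It was 1912 ± 646 CPM in projection neuron Cluster 25, the next cluster, and 906 CPM in Cluster 15, the next interneuron cluster. Gad2 (ENSMUSG00000026787, chr2:22622205-22693874 on the plus strand) was at 1062 ± 127 CPM, rank 6 of 25 and 5 of the 7 interneuron clusters. Gad1 was at 448 ± 58.6 CPM (rank 3) and the vesicular GABA transporter gene Slc32a1 at 21.8 ± 8.66 CPM (rank 4). The Dlx factors, which drive the GABAergic programme, ranked 6 (Dlx1, Dlx2, Dlx5) or 7 (Dlx6) of 25, with Dlx1 at 40.5 ± 9.26 CPM against 252 ± 55.5 CPM in the interneuron precursors of Cluster 10. The markers thus met the GABAergic part of the label, while 1 of the 8 core genes of GABA neurons, Gad1, ranked among the top 3.

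MGE genes were low and CGE genes were mixed. Of 13 MGE genes, 0 ranked among the top 3 clusters, and Lhx6, Nkx2-1 and Lhx8, the transcription factors that specify MGE neurons, had their lowest level of the 7 interneuron clusters in Cluster 13. Lhx6 was at 5.39 ± 3.57 CPM against 285 ± 21.5 CPM in Cluster 5, Nkx2-1 at 1.85 ± 2.59 CPM, and Lhx8 at 3.07 ± 2.87 CPM. Both of the latter were highest in Cluster 15, where Nkx2-1 reached 56.0 ± 23.6 CPM and Lhx8 171 ± 43.3 CPM. Of 10 CGE genes in the tables, 3 ranked among the top 3, namely Scgn, Sp8 and Adarb2. The receptor gene Htr3a was at 0 UMIs in 1304 nuclei, which allows up to 0.23% of nuclei with a UMI, for counting error alone. Nr2f2 and Prox1, transcription factors of CGE neurons, were at 47.6 ± 22 CPM (rank 14) and 38.4 ± 16.5 CPM (rank 10). Adarb2, which encodes an RNA-editing family protein without known editing activity, was at 4555 ± 414 CPM (rank 3) and reached 18432 ± 1737 CPM in Cluster 15. The zinc finger factor Sp8 was at 23.3 ± 6.63 CPM (rank 2 after Cluster 23), and Scgn, a calcium-binding protein gene, at 5.52 ± 4.88 CPM from 43 UMIs (rank 1, with 3.50 CPM in Cluster 15).

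In contrast, LGE and striatal genes were high. Of 22 such genes, 9 were higher in Cluster 13 than in any other cluster and 16 ranked among the top 3. Among the 9 were the homeobox factor Meis2 (7081 ± 737 CPM), the zinc finger factors Tshz1 (517 ± 86.2 CPM) and Sp9 (120 ± 17.7 CPM), the homeobox factor Six3 (110 ± 22 CPM), the guanylyl cyclase subunit Gucy1a1 (169 ± 52.1 CPM), the dopamine receptor Drd2 (111 ± 27.8 CPM), the adenosine receptor Adora2a (32.4 ± 10.9 CPM) and the enkephalin precursor Penk (4.19 ± 3.76 CPM). For Meis2 the next cluster was close, with 6646 ± 702 CPM in Cluster 12. The forkhead factors Foxp1 (799 ± 197 CPM) and Foxp2 (1921 ± 397 CPM) ranked 2, after Cluster 11, the striatal cluster of the study, with 1756 ± 240 CPM and 2502 ± 398 CPM.

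Cluster 13 was nonetheless unlike Cluster 11 at several genes of the same list. Ebf1, a factor of striatonigral neurons, was at 77.9 ± 67.2 CPM (rank 18) in Cluster 13 and at 12463 ± 1265 CPM in Cluster 11. Isl1, the factor of the same neurons, was at 8.56 ± 5.69 CPM against 277 ± 49.5 CPM. Ikzf1 had 13 UMIs in all of Cluster 13 (1.16 ± 1.26 CPM, against 166 ± 70.2 CPM), and Tac1, the substance P precursor, had 2 UMIs. The reverse held for Tshz1, at 47.9 CPM in Cluster 11, and for Drd2, at 3.28 CPM there. Of 12 genes of intercalated and dorsal LGE neurons, 6 ranked among the top 3, among them Sp8 and 5 of the 6 that the list shares with the LGE list (Meis2, Tshz1, Sp9, Foxp2 and Zfp503, the last at 11 ± 5.47 CPM). The remaining shared gene was Ebf1. Across the 8993 genes compared, the mean levels of Cluster 13 were most like those of Cluster 18 (Spearman's rho 0.968, across genes of the same libraries), then of Cluster 15 (0.956), Cluster 11 (0.955) and Cluster 7 (0.953). The low MGE genes and the high LGE genes went against a label of MGE interneurons. CGE genes gave no single direction, and the cluster is called by its number below.

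**Figure D1:**
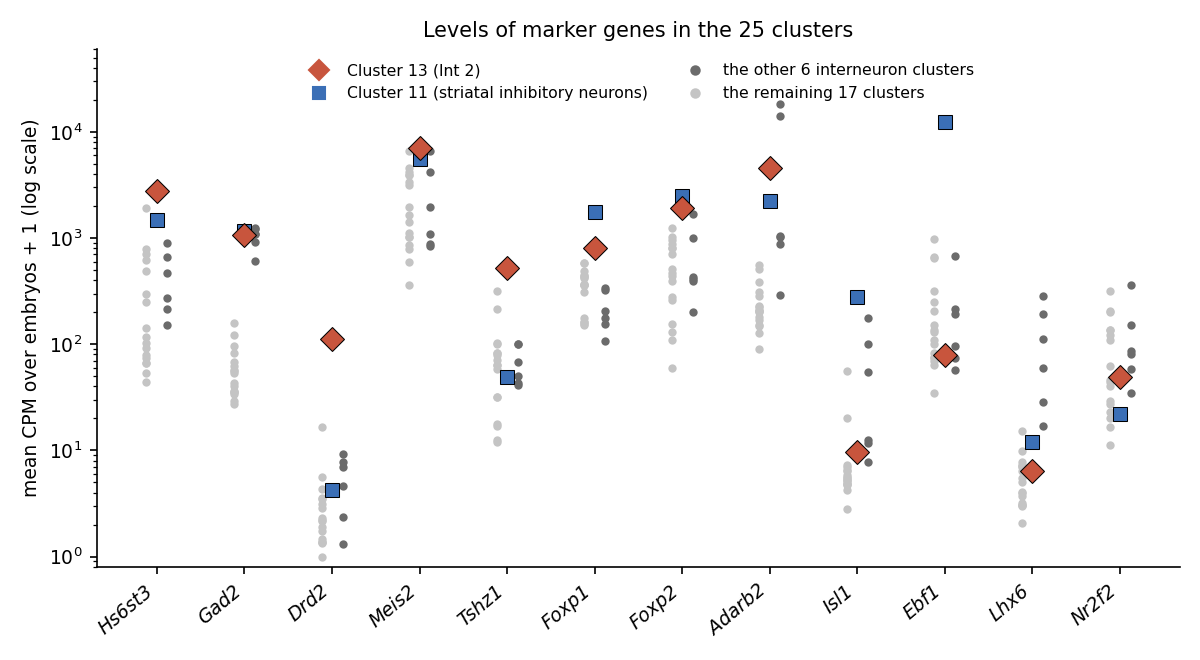
Mean CPM over embryos (plus 1, log axis) of 12 marker genes, with 1 point per cluster; the red diamond is Cluster 13, the blue square Cluster 11, dark points the other 6 interneuron clusters and light points the remaining 17. Drd2, Tshz1, Hs6st3 and Meis2 lay highest in Cluster 13, while Isl1, Ebf1 and Lhx6 lay far below their highest cluster.

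Among the 3549 genes with a mean of at least 50 CPM in Cluster 13, 102 had their highest level there and 9 exceeded the next cluster by more than 2-fold (1 CPM added to both means). Drd2 (chr9:49340627-49408177, plus strand), the inhibitory dopamine receptor of striatopallidal neurons, stood farthest out, at 6.76 times its level in Cluster 19 (15.5 ± 14.2 CPM). Per embryo it was at 134, 95.8, 105, 88.5 and 73.0 CPM in S1-1, S1-2, S2-1, S2-2 and S2-4, and at 77.1 to 149 CPM (median 122) in the EtOH embryos, so that every embryo lay above the mean of every other cluster. The 15 leading genes included receptors and a receptor subunit. Among them were Grm4, a presynaptic glutamate receptor, at 90.7 ± 16.8 CPM (2.29-fold over Cluster 18), Htr1f, a serotonin receptor, at 129 ± 46.1 CPM (2.07-fold over Cluster 25), Adra1a, an adrenergic receptor, at 70.9 ± 22.9 CPM (1.71-fold over Cluster 19), and Gucy1a1 (1.78-fold over Cluster 10), whose product is the alpha subunit of the nitric oxide receptor.

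The protein coding genes among the 15 also included genes of adhesion, release and the cytoskeleton. Ptprm, a receptor-type tyrosine phosphatase that binds itself between cells, was at 1451 ± 265 CPM (1.81-fold over Cluster 5). Syt6, a synaptotagmin, was at 286 ± 27.7 CPM (2.19-fold over Cluster 18), and Skap2, a Src-kinase-associated adaptor, at 57.7 ± 11.4 CPM (2.93-fold over Cluster 4). Zfp385b, a zinc finger gene, was at 875 CPM (697 to 1053 over embryos, 2.03-fold over Cluster 24), Six3 1.68-fold over Cluster 20, and Gm15155, whose function is not known, at 164 ± 46.7 CPM (1.78-fold). Myo3a, an unconventional myosin known from hair cells, was at 113 ± 58.7 CPM (3.04-fold over Cluster 15) and varied from 43.3 to 226 CPM between embryos. Myo3a (chr2:22227503-22618252) ends just upstream of Gad2 on the same strand, and whether reads between them were assigned to the right gene was not tested. The other 3 were lincRNAs: Gm30382 (574 ± 74.5 CPM, 2.15-fold) and Gm5149 (59.5 ± 27.4 CPM, 2.19-fold), which overlap on opposite strands of chromosome 3, and Gm27032 (69.9 ± 25.6 CPM, 1.93-fold), which overlaps Mir124a-3, a precursor of the neuronal microRNA miR-124. Cell Ranger, which the authors ran with default settings, counts reads by strand, and how reads where genes overlap were divided was not tested. All 15 kept their highest level in Cluster 13 when counts were pooled over embryos, when nuclei were thinned to 2000 UMIs and in saline embryos alone.

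Transcription factors of the TALE, Tshz, Zfhx and Foxp families were a broad feature of the cluster, with 9 of 18 among the top 3 and a summed level of 20854 ± 2104 CPM, the highest of the 25 clusters. Of these, Meis2, Pbx3, Tshz1, Foxp1 and Foxp2 were already counted in the LGE and striatal list. Zfhx4, a giant homeobox and zinc finger factor, was at 1036 ± 260 CPM (rank 1, with 639 ± 57.5 CPM in Cluster 12). Meis1, the paralog of Meis2, was at 636 ± 98.2 CPM (rank 2), and their partner Pbx3 at 3251 ± 702 CPM (rank 3, with 5366 ± 810 CPM in Cluster 19). Of 17 genes of dopamine and cyclic nucleotide signalling, 8 were among the top 3, including Drd1, Drd2 and Gucy1a1, which the LGE and striatal list also holds. Gucy1b1, the beta subunit of the nitric oxide receptor, was at 139 ± 24.1 CPM and did not differ from Cluster 18 (144 ± 34.1 CPM) beyond the spread, while the phosphodiesterases Pde7b (177 ± 56.9 CPM, rank 2) and Pde10a (520 ± 69.9 CPM, rank 3) were highest in Cluster 11. Gnal and Gng7, the striatal G protein subunits downstream of dopamine receptors, were at 118 ± 27.6 CPM (rank 3) and 45.1 ± 9.29 CPM (rank 2). Drd1, counted there at rank 3 (2.64 CPM), had 28 UMIs in the whole cluster.

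Glutamate receptor genes differed in direction. The kainate receptor Grik3 had its highest level in Cluster 13 (1072 ± 121 CPM, with 940 ± 134 CPM in Cluster 23) and the AMPA receptor Gria1 ranked 2 (2407 ± 256 CPM), while the kainate receptor Grik2 ranked 24, at 795 ± 234 CPM against 4999 CPM in Cluster 25 and 4784 CPM in Cluster 15. Among metabotropic receptors, Grm4 ranked 1 and Grm8 2 (453 ± 155 CPM). The A-type potassium channel genes Kcnd2 (2678 ± 456 CPM, rank 1) and Kcnd3 (452 ± 87.3 CPM, rank 2) were at about the level of the next cluster, with 2547 ± 188 CPM in Cluster 11 and 462 ± 49.1 CPM in Cluster 15. The chloride importer Slc12a2 ranked 2 (155 ± 34.9 CPM) and the exporter Slc12a5 ranked 5 (42.9 ± 6.82 CPM). In the guidance list, the secreted repellent Slit3 was at 908 ± 134 CPM, above the 176 CPM of Cluster 7, the next interneuron cluster, whereas Slit2 (164 ± 70.3 CPM) ranked 20 and Slit1 (54.8 ± 22.2 CPM) 21. Their receptor Robo1 was at 4300 ± 619 CPM (rank 5). Of 18 genes of heparan sulfate synthesis and editing, 4 ranked among the top 3, among them Hs6st3 and the N-deacetylase Ndst3 (512 ± 82.2 CPM), while Hs6st2, a paralog of Hs6st3, was at 102 ± 39.4 CPM (rank 17).

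Markers of projection neurons, radial glia and proliferation were low against the clusters where they were highest. The summed level of 7 projection neuron genes was 172 ± 52.1 CPM against 2769 CPM in Cluster 22, that of 9 radial glia genes 275 ± 53.5 CPM against 1449 CPM in Cluster 12, and that of 10 proliferation genes 133 ± 51.7 CPM against 2842 CPM in Cluster 17. Microglia (21.7 ± 9.19 CPM), endothelial cell (12.1 ± 3.79 CPM) and oligodendrocyte precursor genes (1.24 ± 1.74 CPM) summed to less than 22 CPM each. The 6 red blood cell genes were an exception, at 42.8 ± 37.6 CPM (5.99 to 143 CPM in saline and 21.1 to 64.4 CPM in EtOH embryos) against 60.0 CPM in Cluster 9, their highest cluster. These levels include RNA free in the suspension, whose part was not tested.

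Nuclei of Cluster 13 were not uniform. To compare nuclei at the same depth, 1298 nuclei with at least 2000 UMIs were thinned to 2000. A Drd2 UMI was then found in 203 nuclei (15.6%, and 29.0% before thinning), with 10.3 to 24.4% per embryo, against 0.069% of callosal projection neurons in Cluster 1, 0.323% of radial glia in Cluster 2 and 0.137% in Cluster 11. The median over embryos of the median depth was 6082.5 UMIs in Cluster 13, 6368 in Cluster 1 and 6651 in Cluster 2. Tshz1 was found in 40.8% of nuclei (3.15% and 17.2% in Clusters 1 and 2), Meis2 in 98.9% (88.7% and 93.7%), Gad2 in 80.8% (5.25% and 7.06%) and Hs6st3 in 53.2% (12.2% and 12.4%). In Cluster 11 the shares of Meis2 (98.1%), Gad2 (84.7%) and Hs6st3 (54.0%) were close to or above these, while that of Tshz1 was 6.24%. For Foxp1 (44.7%, and 66.2% before thinning) and Foxp2 (54.2% and 71.1%), Cluster 2 had the larger share (62.9% and 68.5%). Radial glia of Cluster 2 also express these genes (575 and 803 CPM), so that their share is not a background.

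Tshz1 was detected less often in nuclei with Drd2. Tshz1 was found in 19.7% of the 203 nuclei with Drd2 and in 44.8% of those without, and it was lower among nuclei with Drd2 in 11 of 11 embryos. The shares rose with depth, to 29.2% against 57.7% at 4000 UMIs and to 37.0% (140 of 378 nuclei) against 63.4% with all UMIs. Conversely, Foxp2, the factor of intercalated and striatal neurons, went with Tshz1, which was found in 53.2% of nuclei with Foxp2 and 26.2% of those without (higher in 11 of 11 embryos). Gad2 was found in 83.2% of nuclei with Gad1 and 77.7% of those without, and Hs6st3 in 53.4% of nuclei with Meis2, where only 14 nuclei lacked Meis2. Drd2 and Penk, both of striatopallidal neurons, were found together in 2 nuclei, since Penk was found in 7 at this depth. At 4000 UMIs, 12 of the 23 nuclei with Penk had Drd2 (Penk in 4.33% of nuclei with Drd2, 3.08 points above those without), and with all UMIs 22 of 36 did (5.82% and 1.51%). Of the 5 nuclei with Drd1, 0 had Drd2, and of the 25 with Isl1, 4 had Drd2, counts that are too small to read.

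Further pairs were chosen after their values were seen. In nuclei with Drd2, Foxp1 was found in 80.3% and in 38.1% of the rest, Rarb, a retinoic acid receptor of the developing striatum, in 54.2% and 15.6%, Gucy1a1 in 49.8% and 15%, and Adora2a, co-expressed with Drd2 in the adult striatum, in 16.8% and 3.93%. The first 3 of these were higher among nuclei with Drd2 in 11 of 11 embryos and Adora2a in 10 of 11. Adarb2 (27.6% and 64.8%), Erbb4 (43.4% and 70.8%) and Foxp2 (36.0% and 57.5%) were lower among nuclei with Drd2 in 11 of 11 embryos. Nuclei with Tshz1 had the opposite pattern, with Adarb2 in 80.6% against 44.0%, Erbb4 in 82.6% against 55.3%, Hs6st3 in 64.5% against 45.4% and Foxp1 in 30.8% against 54.3%, each in the same direction in 11 of 11 embryos. These shares pool both treatments. Among nuclei with Drd2, Erbb4 was found in 33.3 to 69.2% per saline embryo and 12.5 to 28.6% per EtOH embryo. Adarb2 was found in 20 to 50% and 0 to 25% of them. In Clusters 1, 2 and 11, Adarb2 was found in 21.05, 19.5 and 74.1% of nuclei, and Erbb4 in 34.2, 34.7 and 38.5%. Nuclei are not replicates and the clusters were built from the same counts, so these shares are given without a test.

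**Figure D2:**
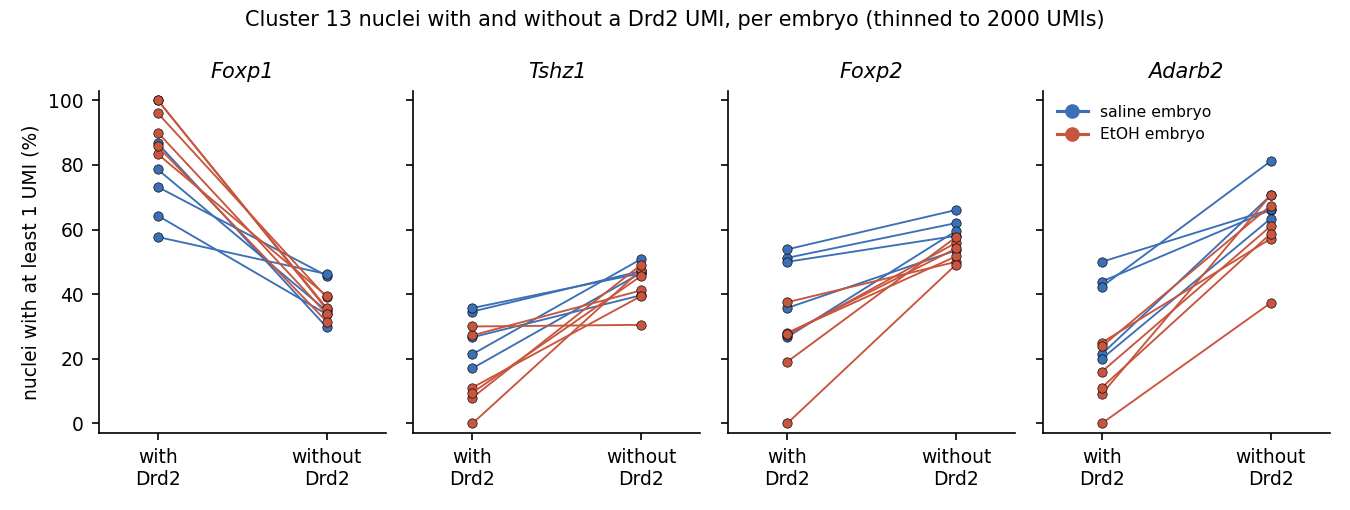
Share of Cluster 13 nuclei (in %, thinned to 2000 UMIs) with at least 1 UMI of Foxp1, Tshz1, Foxp2 or Adarb2, among nuclei with and without a Drd2 UMI; each line is 1 embryo, blue for saline and red for EtOH. Foxp1 fell from left to right in all 11 embryos and the other 3 genes rose in all 11.

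The first question of the treatment comparison was whether the share of nuclei in the cluster changed. Cluster 13 made up 3.46, 2.5, 2.19, 1.92 and 2.07% of the nuclei of S1-1, S1-2, S2-1, S2-2 and S2-4, and 1.55 to 3.76% (median 2.76%) of those of the EtOH embryos. The groups overlapped over most of their range. The means were 2.43 ± 0.615% (n = 5) and 2.65 ± 0.757% (n = 6), a difference of 0.223 percentage points (two-sided exact permutation test over 462 splits, p = 0.604). Within batches the sign was not the same, with EtOH lower by 1.14 points in batch 1 (exact permutation p = 0.333, where 0.167 is the smallest possible) and higher by 0.996 points in batch 2 (exact permutation p = 0.0571). With labels exchanged within batches, the exact permutation p was 0.629.

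Nuclei of the EtOH embryos were shallower. Their median ran from 4161 UMIs in E1-1 to 6485 in E2-1 (median 6054), against 8483, 7934, 7970, 7606 and 5544 in S1-1, S1-2, S2-1, S2-2 and S2-4. Thus S2-4 lay within the EtOH range and the other 4 saline embryos above it. The means were 7507 ± 1141 UMIs (n = 5) in saline and 5801 ± 824 UMIs (n = 6) in EtOH (difference -1706 UMIs, two-sided exact permutation p = 0.0238, and p = 0.0381 within batches). Without S1-1, S1-2, S2-1 or S2-2 the exact permutation p was 0.0571, 0.0571, 0.0571 and 0.0524, and without S2-4 it was 0.00476. The difference was -3086 UMIs in batch 1 alone (exact permutation p = 0.333, the smallest possible being 0.167) and -899 UMIs in batch 2 alone (exact permutation p = 0.257). Depth and treatment therefore moved together over all embryos of Cluster 13, and the values of S2-4 are given beside the results below.

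**Figure D3:**
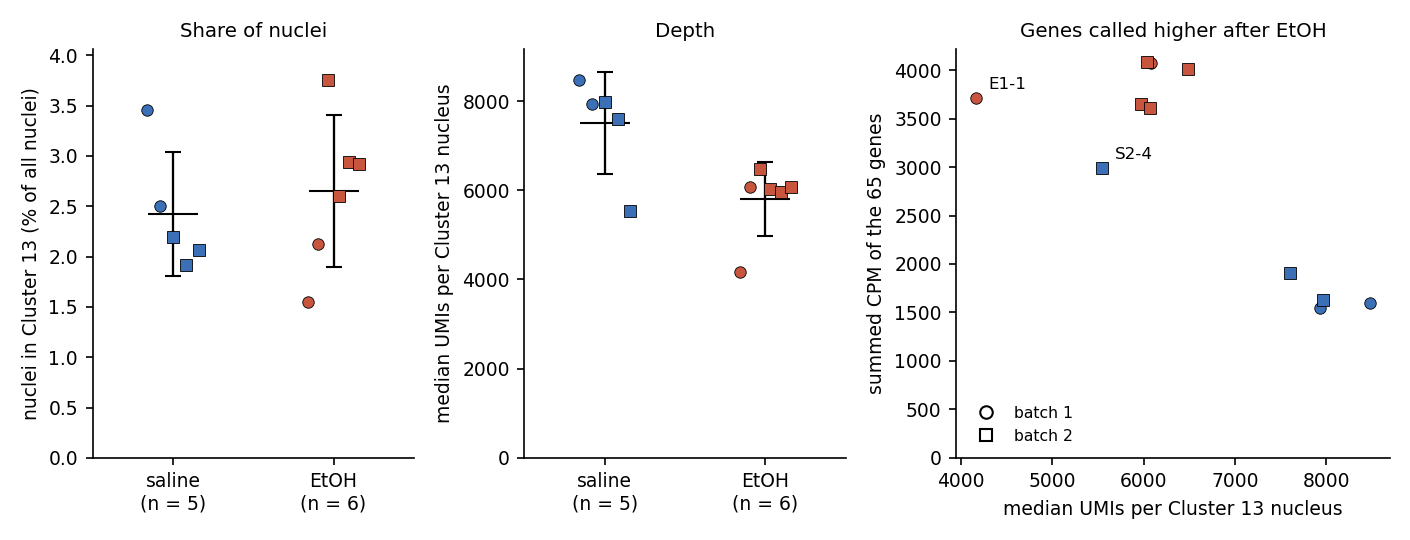
Left and middle, percent of all nuclei that were in Cluster 13 and median UMIs per Cluster 13 nucleus, with 1 point per embryo (circles batch 1, squares batch 2) and bars for mean and SD. Right, the summed CPM of the 65 genes called higher after EtOH against the median UMIs per nucleus (axis from 4000), where S2-4, the shallowest saline embryo, had 2993 CPM and the other saline embryos 1542 to 1909.

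The comparison of the study's main question, which genes differed between EtOH and saline, was run on the summed counts of 8158 genes in 5 saline and 6 EtOH embryos. With edgeR's quasi-likelihood test, a Benjamini-Hochberg adjusted p under 0.05 and the fold change limits of the study, 65 genes were higher after EtOH (0.797% of those tested) and 16 were lower (0.196%), 81 in all (0.993%). A further count at an unadjusted p under 0.05 gave 1207 genes. Of the called genes, 25 of the 65 and 8 of the 16 had no overlap between groups, where 0.956% and 0.674% of all genes tested had none in that direction (1.63% in either).

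Slit2, which encodes a secreted ligand of the Robo receptors that repels axons and migrating neurons, had the smallest p. Slit2 (chr5:47983138-48307733, plus strand) was at 219, 222, 285, 223 and 212 CPM in S1-1, S1-2, S2-1, S2-2 and S2-4, and at 76.9 to 138 CPM (median 106) in the EtOH embryos. The groups did not overlap, and S2-1 was the highest. The log2 fold change was -1.08 (SE 0.126, edgeR adjusted p = 1.15e-04). It was -1.54 in batch 1 alone (edgeR adjusted p = 0.0068) and -1.0 in batch 2 alone (edgeR adjusted p = 0.0109), and it did not pass with the median UMIs per nucleus as a covariate (-0.86, edgeR adjusted p = 0.0623) or with an equal number of nuclei per embryo (-1.23, edgeR adjusted p = 0.0807). At 2000 UMIs per nucleus the mean level was lower in EtOH embryos among nuclei with Foxp2 (92.2 ± 73.8 against 243 ± 21.4 CPM) and without Foxp2 (98.2 ± 15.6 against 193 ± 68.8 CPM). The mean was also lower with Drd2 (53.5 ± 53.2 against 174 ± 40.3 CPM) and without Drd2 (104 ± 38.9 against 230 ± 39.3 CPM). Nuclei with Drd2 numbered only 8 to 25 per EtOH embryo. Among them the groups overlapped (lowest saline embryo 133 CPM, highest EtOH embryo 140 CPM). Slit2 was, however, low in Cluster 13 against its level in other clusters (2479 ± 576 CPM in radial glia Cluster 20, 1059 CPM in Cluster 2), and a UMI was found in 29.3 ± 6.5% of nuclei in saline and 12.2 ± 4.02% in EtOH embryos, against 24.3% in Cluster 1 and 68.3% in Cluster 2. What part of the UMIs was free RNA was not tested. The summed radial glia markers, of which Pax6, also a gene of dorsal LGE neurons, made up 166 of 275 CPM, were at 224 to 349 CPM in saline and 183 to 339 CPM in EtOH. The summed proliferation markers were at 97.5 to 202 CPM and 75.1 to 208 CPM, and a UMI of Top2a was found in 4.6 ± 2.45% and 2.09 ± 1.31% of nuclei. Their part in the Slit2 difference was not tested.

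Zfpm2 (Fog2), a cofactor of GATA factors, had the largest fold change of the 16 genes called lower. Zfpm2 (chr15:40655035-41104592, plus strand) was at 202, 238, 141, 255 and 119 CPM in S1-1, S1-2, S2-1, S2-2 and S2-4 and at 48.1 to 102 CPM (median 68.3) in the EtOH embryos, without overlap. Its log2 fold change was -1.49 (SE 0.231, edgeR adjusted p = 0.0139). Cluster 13 had the lowest Zfpm2 level of all 25 clusters (125 CPM, with 3010 CPM in projection neuron Cluster 16). With thinned nuclei, a Zfpm2 UMI was found in 24.7 ± 8.5% of nuclei per saline embryo and 7.21 ± 3.96% per EtOH embryo. It was found in 32.88% of nuclei in Cluster 1, 53.59% in Cluster 2 and 21.14% in Cluster 11. What part of the Zfpm2 UMIs was free RNA was not tested. The call was lost without S1-1 (log2 fold change -1.45, edgeR adjusted p = 0.0767), E2-1 (-1.46, 0.0567) or E2-2 (-1.52, 0.051), in batch 2 alone (-1.35, 0.161) and with thinned nuclei (-1.62, 0.0654). It was also lost with equal nuclei per embryo (-1.12, edgeR adjusted p = 0.324) and with the median UMIs as a covariate (-1.05, 0.324). Kcnq1ot1, the imprinted long non-coding RNA antisense to Kcnq1, was at 629, 685, 624, 698 and 532 CPM in the saline embryos and at 401 to 534 CPM (median 445) after EtOH (log2 fold change -0.54, SE 0.0957, edgeR adjusted p = 0.0136). Only S2-4 lay within the EtOH range.

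The other genes with the 10 smallest adjusted p among those lower included 3 with roles in RNA or chromatin. Sfpq, a splicing and paraspeckle protein, fell from 489 to 575 CPM in saline to 356 to 466 CPM (log2 fold change -0.38), Nufip2, an RNA-binding partner of the fragile X protein, by 0.52 on the log2 scale, and the HMG-box factor Tox3 by 0.61. Efr3a, a membrane scaffold for a phosphatidylinositol kinase, fell by 0.80, Cachd1, a protein related to calcium channel subunits, by 0.61, Rai14, an actin-associated protein, by 0.77, and the lincRNA Gm32061, which overlaps Magel2 and Ndn on the other strand, by 1.32. Groups of Efr3a, Sfpq and Nufip2 did not overlap, and those of Tox3, Cachd1, Rai14 and Gm32061 did. Of these 10 genes, Slit2 passed under 21 of the 23 alternatives tested, Zfpm2 under 16 and Kcnq1ot1 under 15, while the other 7 passed under 6 to 9 of the 21 to 23 in which they were tested.

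Zfhx4, named here because it was both called and highest in Cluster 13 of all clusters, was at 1342, 951, 1304, 1534 and 1049 CPM in S1-1, S1-2, S2-1, S2-2 and S2-4 and at 702 to 1015 CPM (median 913) after EtOH. Thus S1-2 lay within the EtOH range, and the log2 fold change was -0.53 (SE 0.124, edgeR adjusted p = 0.0478). Zfhx4 was not called without S1-1, S2-1, S2-2, E2-1, E2-2 or E2-3, or in either batch alone. Its call was also lost with a block for matching dam and sample number, equal nuclei per embryo or the median UMIs as a covariate. The remaining alternatives for this gene are not listed here.

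The genes called higher were of another kind: 41 of the 65 (63.1%) were not protein coding, against 5.39% of the genes tested. Their mean levels were low, with a median of 29.7 CPM against 40.9 CPM over all genes tested. P2ry14, a receptor for UDP-sugars whose gene lies opposite Med12l, was at 13.1, 10.3, 14.5, 9.53 and 29.2 CPM in S1-1, S1-2, S2-1, S2-2 and S2-4 and at 42.4 to 69.2 CPM (median 50.5) after EtOH. The groups did not overlap and S2-4 lay nearest to EtOH (log2 fold change 1.70, SE 0.234, edgeR adjusted p = 8.41e-04). Gm26582, a lincRNA opposite Cdkl2 and G3bp2 on chromosome 5, was at 4.75, 5.99, 5.99, 6.81 and 14.6 CPM in the saline embryos and at 24 to 39.1 CPM (median 26.7) after EtOH (log2 fold change 1.95, SE 0.282, edgeR adjusted p = 0.00124). Again the groups did not overlap and S2-4 lay nearest. Both passed under every alternative tested except batch 2 alone and the median UMIs as a covariate (edgeR adjusted p = 0.088 and 0.138 for both genes).

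The other genes with the 10 smallest adjusted p among those higher had log2 fold changes of 1.19 to 1.67 and an edgeR adjusted p of 0.0136. Of these, 4 were annotated as antisense transcripts within genes: Gm29237 (1.67) in Sptbn1, Gm11250 (1.57) in Tle1, 1700016K05Rik (1.52) in Ptprm and Gm1992 (1.19) in Xkr4. 1700016K05Rik was also highest in Cluster 13 of all clusters (18.6 CPM, with 9.38 CPM in Cluster 5), as was Ptprm. Ptprm itself was not called (log2 fold change 0.06). The lincRNA 4930555F03Rik rose by 1.43, Glp2r, the receptor of glucagon-like peptide 2, by 1.49, Pnpla1, a lipid acyltransferase of the skin barrier, by 1.19 and Ppia, cyclophilin A, by 1.27. Ppia has many processed pseudogenes, with which it may share reads. Each of these 8 genes passed under 15 to 17 of the 21 to 23 alternatives in which it was tested. All 8 lost the call without S1-1 (log2 fold changes 1.07 to 1.61, edgeR adjusted p = 0.0767), in batch 2 alone and with the median UMIs as a covariate, 7 in batch 1 alone (all but Gm11250), and 4 without E2-1 (Pnpla1, Gm1992, 1700016K05Rik and Gm11250). With a block for matching dam and sample number, Pnpla1, Ppia, Gm29237, Gm1992, 1700016K05Rik and Glp2r lost it. With equal nuclei per embryo, Pnpla1, Ppia and 4930555F03Rik did. For 54 of the 65 genes, S2-4 was the saline embryo nearest to the EtOH embryos. Their summed level was 1598, 1542, 1626, 1909 and 2993 CPM in S1-1, S1-2, S2-1, S2-2 and S2-4 and 3609 to 4088 CPM in the EtOH embryos. With the median UMIs per nucleus as a covariate, 0 genes passed in either direction (530 at an unadjusted p under 0.05). The log2 fold changes of the 10 named genes were then 0.99 (Ppia) to 1.62 (Gm26582), against 1.19 to 1.95 without it. The part of depth in these calls was thus not settled by the lost calls.

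**Figure D4:**
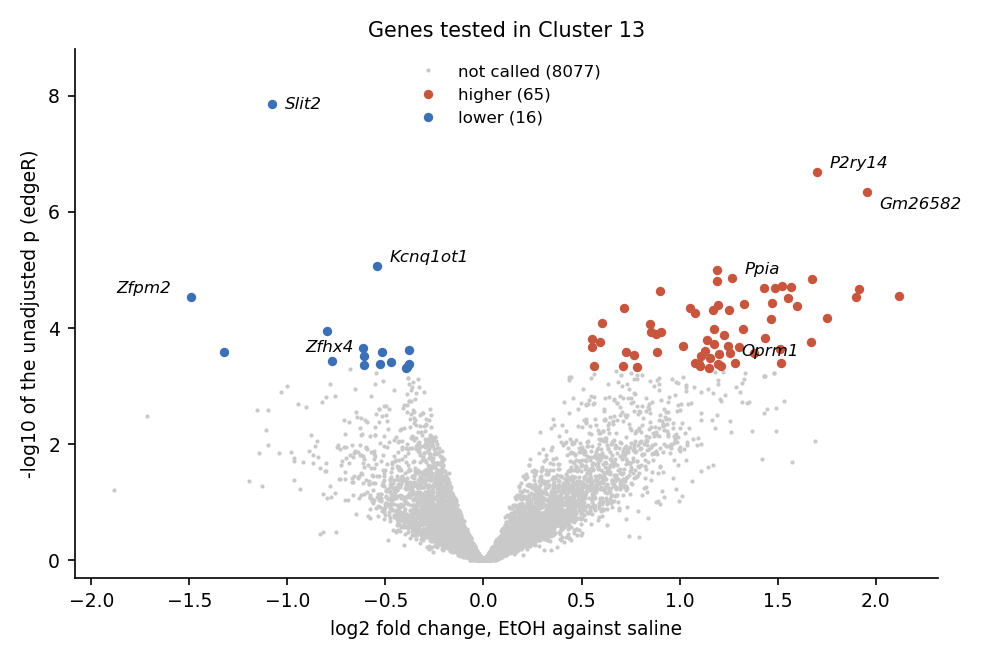
Each point is 1 of the 8158 genes tested, with its log2 fold change (EtOH against saline) and its unadjusted edgeR p as -log10; the 65 genes called higher are red and the 16 called lower blue. Slit2 had the smallest p, followed by P2ry14 and Gm26582 on the other side.

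**Figure D5:**
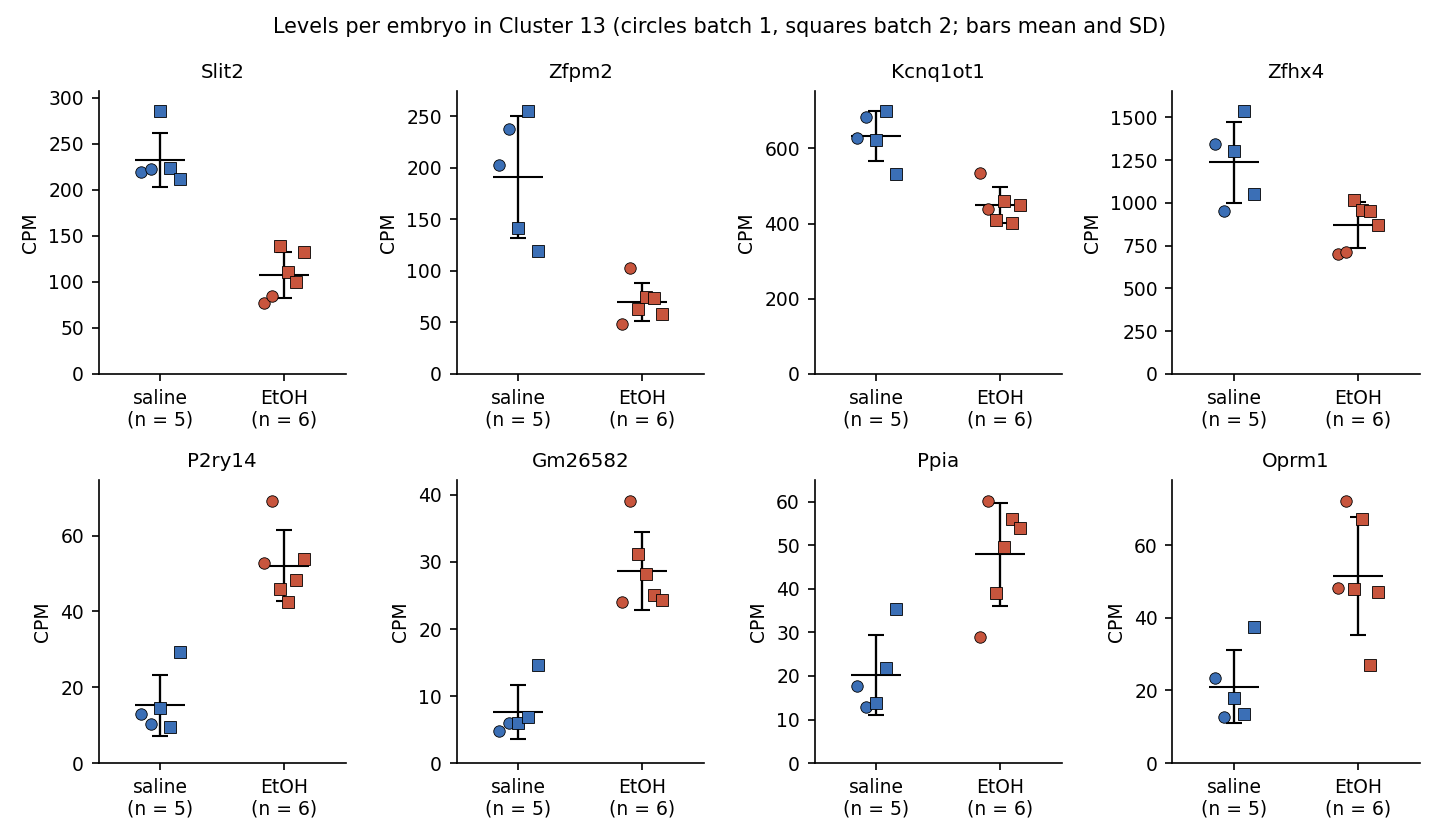
CPM per embryo of 8 called genes, 4 lower and 4 higher after EtOH, with circles for batch 1, squares for batch 2 and bars for mean and SD. Slit2, Zfpm2, P2ry14 and Gm26582 did not overlap between groups, while for Kcnq1ot1, Zfhx4, Ppia and Oprm1 1 saline embryo lay within the EtOH range.

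The counts depended on single embryos. Without S1-1, 2 genes were higher and 1 lower, and without S2-4, 404 and 116 were. Leaving out E2-1 gave 9 and 3, E2-2 15 and 2, S1-2 16 and 6, and S2-1 21 and 6, and leaving out any of the other 5 gave 33 to 45 and 5 to 12. Batch 1 alone gave 73 higher and 10 lower, batch 2 alone 1 (Foxp1, whose log2 fold change over both batches was 0.38, not called) and 1 (Slit2), and batch as a covariate 32 and 6.

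Over the 31 lists, 3 of 239 tested genes were called (1.26%), near the 0.993% over all genes, so that the count says nothing about the lists. In the list of intercalated and dorsal LGE neurons, 1 of 10 tested members was higher, Oprm1, the mu opioid receptor of these neurons. Oprm1 was at 23.3, 12.8, 18, 13.6 and 37.5 CPM in S1-1, S1-2, S2-1, S2-2 and S2-4 and at 27 to 72.2 CPM (median 47.9) after EtOH (log2 fold change 1.23, SE 0.258, edgeR adjusted p = 0.0284), and S2-4 lay within the EtOH range. The alternatives in which Oprm1 lost its call included leaving out S1-1, batch 2 alone and the median UMIs as a covariate. Among thinned nuclei, Oprm1 was found in 2.83% of those with Tshz1 and 5.86% of those without (higher in 2 embryos, lower in 8). With Drd2 it was found in 8.37%, and without Drd2 in 3.93% (higher in 9 embryos, lower in 1). These shares rest on 60 nuclei with Oprm1, pool both treatments and were not tested. In the TALE, Tshz, Zfhx and Foxp list, 1 of 18 was lower (Zfhx4), and in the guidance list, 1 of 23 (Slit2). In each of the other 28 lists, 0 members were called, and in 4 of these (intermediate progenitors, endothelial cells, pericytes and fibroblasts, oligodendrocyte precursors) no member was high enough to be tested. Among them, 0 of 7 tested GABA neuron genes were called (median log2 fold change -0.03, against 0.01 over all genes tested), 0 of 15 LGE and striatal genes (-0.06), 0 of 12 dopamine and cyclic nucleotide genes (0.14), 0 of 16 heparan sulfate genes (-0.07), 0 of 15 ionotropic and 0 of 6 metabotropic glutamate receptors (-0.02 and 0.22), 0 of 12 GABA-A receptor and chloride transporter genes (-0.06), 0 of 7 Kv4 genes (0.09), 0 of 15 calcium and sodium channels (-0.04) and 0 of 20 synapse genes (-0.06). Of the lists with few or low members, the median log2 fold change was -0.58 over 6 tested proliferation genes (3 at an unadjusted p under 0.05), -0.33 over 4 MGE genes and -0.75 over 3 thalamic genes. Reln, the 1 Cajal-Retzius gene tested, was at -0.38, and the 1 red blood cell gene at 0.74, with 0 called in each of these lists. The Wnt pathway (0 of 20, median 0.00), apoptosis (0 of 8), alcohol metabolism and oxidative stress (0 of 8) and heat shock genes (0 of 7) did not pass either. Of the genes that the study named as changed in several clusters, 6 could be tested in Cluster 13 and 0 were called, a list that was chosen on these embryos.

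The markers of Cluster 13 were not called. Hs6st3 was at 2558, 3120, 3393, 2353 and 2425 CPM in S1-1, S1-2, S2-1, S2-2 and S2-4 and at 2211 to 3740 CPM (median 2562) after EtOH (log2 fold change -0.03, SE 0.147). Gad2 had a log2 fold change of -0.17 (SE 0.0981), Drd2 of 0.20 (SE 0.187), Tshz1 of -0.29 (SE 0.117) and Meis2 of -0.06 (SE 0.103), and for each of them the groups overlapped. As measures of RNA quality, 94 ribosomal protein genes summed to 1448 to 2037 CPM in saline and 1827 to 2227 CPM after EtOH, and the nuclear RNA Malat1 was at 14041 ± 1662 CPM (n = 5) and 16308 ± 1995 CPM (n = 6). Their part in the calls was not tested.

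To ask whether a response was particular to Cluster 13, the EtOH difference was compared with that in the other 6 interneuron clusters, summed per embryo, as an interaction with the embryo as a block. Of 12212 genes, 2 passed an adjusted p under 0.05 (0.0164%), and 489 had an unadjusted p under 0.05. For Zfpm2 the interaction was -1.14 on the log2 scale (edgeR adjusted p = 0.00876). Its level was lowest in Cluster 13 of all clusters, and the part of free RNA in this interaction was not tested. In the other interneuron clusters Zfpm2 was at 335 ± 40.8 CPM in saline and 270 ± 58.1 CPM in EtOH, with overlap, and its log2 fold change there was -0.37 (edgeR adjusted p = 0.138). For Tcf7l2, a Wnt-responsive factor and thalamic marker, the interaction was -1.56 (edgeR adjusted p = 0.00876), but the values rested on few embryos. Within Cluster 13, Tcf7l2 was at 21, 14.5, 104, 17.7 and 14.6 CPM in the saline embryos and at 5.78 to 40 CPM after EtOH, so that S2-1 alone stood apart, and in the other interneuron clusters E2-2 (244 CPM), S2-1 (126 CPM) and E2-1 (110 CPM) did. Without E2-1, E2-2 or S1-1, 0 genes passed the interaction test, and without S2-4 or E2-4, 4 did. Neither gene passed against Cluster 11 alone (Tcf7l2 -0.82, Zfpm2 -0.56, edgeR adjusted p = 1.0 for both) or against Cluster 15 alone (Tcf7l2 -2.58, edgeR adjusted p = 1.0, and Zfpm2 -1.36, edgeR adjusted p = 0.0715).

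The next 3 genes by p, the microtubule-severing protein gene Fign (-0.72), Oprm1 (1.22) and the potassium channel subunit gene Kcnmb2 (-0.72), did not pass (edgeR adjusted p = 0.171 for each). Oprm1 had a log2 fold change of -0.07 in the other interneuron clusters and -0.22 in Cluster 11. For Slit2 the interaction was -0.62 (unadjusted p = 4.63e-04, edgeR adjusted p = 0.582), so that a larger difference in Cluster 13 was not shown. Slit2 in the other interneuron clusters was at 367 ± 108 CPM in saline and 258 ± 75.6 CPM in EtOH (log2 fold change -0.57, edgeR adjusted p = 0.148), and in Cluster 11 its log2 fold change was -0.67 (edgeR adjusted p = 0.0868). P2ry14 had 0.95 (edgeR adjusted p = 0.0618) and 0.89 (edgeR adjusted p = 0.162) there. These comparisons share their embryos with that of Cluster 13. Their own counts were 384 higher and 123 lower of 14242 genes (2.7% and 0.864%) in the other 6 interneuron clusters. In Cluster 11 they were 46 and 39 of 10185 (0.452% and 0.383%). The sums held 12445 nuclei in the other 6 interneuron clusters, 2209 in Cluster 11 and 1304 in Cluster 13. The power to call genes differs with these numbers, so the shares are not compared.

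Between batches, with treatment in the fit, 0 of 8158 genes had an adjusted p under 0.05 in Cluster 13 with edgeR (468 at an unadjusted p under 0.05, smallest adjusted p = 0.441) and 0 with DESeq2.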

How the data were processed

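The authors processed the libraries with Cell Ranger, run with default settings, on its mm10 reference, filtered nuclei by genes, counts and mitochondrial, ribosomal and hemoglobin share, removed sex-linked, mitochondrial and other genes, and clustered with Seurat after Harmony correction for batch and dam. The Cell Ranger version, on which the default for intronic reads depends, is not given in the sources used here. The authors deposited whole-number UMI counts, not normalized, in 1 table per embryo and cluster (275 tables, 23513 genes), and their assignment of nuclei to clusters was used as it stands. Doublets were not called here.

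The counts of Cluster 13 were summed per embryo and tested with edgeR 4.0.16 (R 4.3.3, limma 3.58.1): TMM normalization, filterByExpr, robust quasi-likelihood test, no covariate, Benjamini-Hochberg adjustment over the 8158 genes kept, adjusted p under 0.05 and the study's fold change limits of 1.25 and 0.8. The study tested nuclei, whereas here the embryo is the replicate. An embryo with fewer than 10 nuclei in a cluster would have been left out, and none was in Cluster 13. The interaction fit had 2 sums per embryo and the embryo as a block. Percent and median UMIs were tested with exact permutation tests. Alternatives were RLE size factors, DESeq2 1.42.0, no filter, batch, pairing and depth terms, sums per dam, limma voom, thinning to 2000 UMIs, equal nuclei and leaving out each embryo. Batches alone and the depth term were added after seeing the data. The fit was tested on simulated counts with known changes. It recovered 50% of the genes changed 1.5-fold and 40% of those changed 0.67-fold. At 2-fold and 0.5-fold it recovered 96% and 78%. Of the 142 genes called, 10 were false. The changes were placed only in genes above a minimum mean count, so recovery among genes of lower count was not measured. Neither a litter effect nor an effect of depth per nucleus was simulated.

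Genes were named by these rules: Hs6st3 and Gad2, the 15 with the largest ratio to the next cluster, members of 31 lists (358 of their 360 genes were in the tables), the 10 with the smallest adjusted p in each direction, the 5 with the smallest interaction p, and 8 pairs. Members, lists and tests were chosen with earlier results of these data known. Other genes were chosen after their values were seen. Coordinates and types are from GENCODE M21 on GRCm38, matched by symbol (98.3% of genes). No dam is shared between treatments. Embryos whose dam number and sample number match between treatments (S1-1 with E1-1, for example) did not deviate together (correlations -0.0558 to 0.0126 over 5 pairs), so they were not treated as pairs. No 2 libraries of the same dam agreed within sampling noise (11 pairs compared). The values of 1 list member are not reported here.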

Additional observations from a re-analysis of the deposited data

Results flagged for a closer look

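In 86 groups of embryos (percent of nuclei, median UMIs and 41 named genes, each in saline and EtOH), 13 held a lowest or highest embryo whose gap to the next was large against the range of the group, where chance gives about 1 in 20. The median of 4161 UMIs per nucleus in E1-1 stood below the next EtOH embryo at 5970. S2-4, the shallowest saline embryo, stood above the other saline embryos for P2ry14 (29.2 CPM, next 14.5), Gm26582 (14.6 CPM, next 6.81), Gm29237 (17.7 CPM, next 6.72) and Gm11250 (25 CPM, next 8.55), 4 of the 10 named genes called higher after EtOH. S2-1 stood apart for Slit2 (285 CPM, next 223) and Tcf7l2 (104 CPM, next 21), and S2-2 for Gm30382 (784 CPM, next 597). Among EtOH embryos, E2-3 stood apart for Htr1f (254 CPM, next 134) and Gm11250 (19.3 CPM, next 33.1), E1-1 for Gucy1a1 (284 CPM, next 196), and E1-2 for Adra1a (123 CPM, next 61.5) and Cachd1 (138 CPM, next 89.5). E1-1 and E1-2 had 45 and 50 nuclei.

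The test of the EtOH difference between Cluster 13 and the other interneuron clusters passed for Tcf7l2 (interaction -1.56 on the log2 scale), whose values rested on few embryos, and for Zfpm2 (-1.14). Neither passed against Cluster 11 or Cluster 15 alone, and the part of free RNA in the Zfpm2 values was not tested. Each was called under 10 of the 16 alternatives of that test, with the log2 interaction from -2.58 to -0.82 for Tcf7l2 and from -1.36 to -0.56 for Zfpm2.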

How the results depend on the processing

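The numbers of genes higher and lower after EtOH (65 and 16) were 251 and 170 with no filter, 260 and 42 with limma voom, 19 and 5 with thinned nuclei, 14 and 0 with equal nuclei per embryo (505 at an unadjusted p under 0.05) and 32 and 6 with batch as a covariate. They were 1 and 1 in batch 2 alone, 0 and 0 with the median UMIs as a covariate, and 8 and 2 with the replicate block, of which 6 and 2 were shared with the fit without the block. DESeq2 gave 28 lower genes, batch 1 alone 10, and leaving out 1 embryo 2 to 404 higher and 1 to 116 lower. RLE size factors, sums per dam and adjusted p alone stayed within 1.5 times both counts, as did DESeq2 and batch 1 alone for higher genes (77 and 73). The genes were not all shared with the 65 and 16: RLE shared 63 and 16, DESeq2 58 and 16, sums per dam 42 and 5, and batch 1 alone 15 and 2. The median log2 fold change over all genes was 0.138 with DESeq2, which tested 20552 genes, and -0.0049 to 0.0143 under the other alternatives. The interaction gave 1 gene against Cluster 11 (Ccbe1), 0 against Cluster 15, 17 with no filter and 0 to 4 without 1 embryo. Without E1-2, 1 gene passed between batches, and leaving out any other embryo gave 0. The difference in percent of nuclei was -0.0712 points between dam means and 0.000962 to 0.481 points without 1 embryo, and 0.165 points with the replicate block over 5 pairs (exact sign-flip p = 0.812). The difference in median UMIs was -2197 to -1378 without 1 embryo and lost its call without S1-1, S1-2, S2-1 or S2-2. Of the 8 pairs named by rule, the shares changed direction with depth in 2: Adarb2 with minus without Meis2 was 48.1 points with all UMIs and 7.62 at 4000 UMIs, and Drd2 with minus without Isl1 -3.19 and -3.33. Among single genes and pairs, 394 of the values under an alternative stayed on the same side of the threshold or within 1 SD, 184 lost a call, 6 gained one and 3 moved by more than 1 SD. Depth limits genes of low level most, and E1-1 had 208038 UMIs.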

Other observations

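Shares of nuclei with a UMI at 2000 UMIs also varied with treatment, as a description with no test. Adarb2 was found in 64.7 ± 5.4% of nuclei per saline embryo and 50.6 ± 9.6% per EtOH embryo, and Erbb4 in 74.0 ± 6.83% and 54.6 ± 6.47%. The summed levels of these genes did not move that way: Adarb2 was at 4180 to 4794 CPM in saline and 3995 to 5393 CPM in EtOH, and Erbb4 at 1935 to 5212 CPM and 3060 to 5637 CPM, so that no order is read from the shares. Oprm1 was found in 2.15 ± 1.28% and 8.15 ± 2.15% of nuclei, as in its level, with 2.39% in Cluster 1, 0.692% in Cluster 2 and 32.6% in Cluster 11.

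Ebf1, which was far higher in Cluster 11 than in Cluster 13, was found in 18 ± 6.2% of nuclei per saline embryo and 5.19 ± 3.45% per EtOH embryo, and its level was 129 ± 70.6 CPM (n = 5) and 35.4 ± 16.1 CPM (n = 6). The log2 fold change of -1.71 did not pass (edgeR adjusted p = 0.103). This gene was chosen after its values were seen. A UMI of Ebf1 was found in 11.1% and 11% of the nuclei of Clusters 1 and 2, below the saline and above the EtOH mean.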
